A study of Drosophila melanogaster with 3 samples.

Results

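The genes described here encode the subunits of the proteasome, and Pdp1 binding near their transcription start sites (TSSs) was read from ChIP-seq peak lists. They were taken by symbol, as protein-coding genes named Prosalpha, Prosbeta, Rpn or Rpt. This gave 48 of the 13945 protein-coding genes on the 6 chromosome arms. The gene set was chosen with earlier results of these data known. Of these, 14 encode the canonical core particle, 18 the canonical regulatory particle, and 16 are paralogues with a T or R suffix, which were kept apart. The study has 1 group, whole Drosophila melanogaster embryos of both sexes, aged 0 to 24 h. All embryos came from 1 transgenic line in which Pdp1, a PAR bZIP transcription factor, carries a C-terminal GFP tag. Chromatin was precipitated through the tag in 3 biological replicates, and no untagged or otherwise treated group was among the samples. Whole embryos pool all tissues over a full day of development, so a peak does not say in which cells Pdp1 was bound.

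The proteasome degrades proteins marked with ubiquitin. Its core particle is a barrel of stacked rings, with alpha subunits on the outside that gate the entry and beta subunits inside that hold the cutting sites. The regulatory particle caps the barrel. Its Rpt subunits form an ATPase ring that unfolds substrates, and its Rpn subunits bind ubiquitin, remove it and hold the cap together. In flies many genes of the complex have duplicates known for expression in the male germ line.

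Short stretches of reference sequence show what lay under the summits of 5 bound members, with 40 bases on each side of the summit. They are printed 5′ to 3′ on the plus strand of the Release 6 assembly (dm6), and were read from the RefSeq genome. Capitals mark a PAR bZIP word in the first 4 and, in the last, the core of the Ohler 1 promoter element together with 2 copies of the antioxidant response core, 1 of which overlaps it.

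Rpn9, chr3R:23733054-23733134: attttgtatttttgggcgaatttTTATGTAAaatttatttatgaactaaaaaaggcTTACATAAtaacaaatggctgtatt
Rpn5, chr3R:5789183-5789263: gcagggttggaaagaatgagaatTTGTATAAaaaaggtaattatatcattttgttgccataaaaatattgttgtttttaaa
Rpn10, chr3L:21536882-21536962: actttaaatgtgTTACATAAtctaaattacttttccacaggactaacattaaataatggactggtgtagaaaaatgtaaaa
Prosbeta2, chr3L:14999517-14999597: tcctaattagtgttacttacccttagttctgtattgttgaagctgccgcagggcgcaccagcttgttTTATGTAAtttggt
Prosbeta3, chr3R:9006373-9006453: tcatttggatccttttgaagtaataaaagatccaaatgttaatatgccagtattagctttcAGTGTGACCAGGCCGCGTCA

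Rpn9, Rpn5, Prosbeta2 and Prosbeta3 are shown as the fully described members with at most 30 untranslated bases in this window, leaving out Prosalpha5, Prosbeta1 and Rpn8, which have higher signals than some shown but lie on an arm from which no sequence is printed. Rpn10 was added after its values were seen, as a further example with the word. TTACATAA is TTATGTAA read on the other strand, so Rpn9 held the same word on both strands, with centres 13 and 20 bp from its summit.

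Pdp1 summits stood at most regulatory particle genes, at 7 of the 14 core particle genes and at 1 paralogue. A gene is called bound where a summit of the authors' optimal list, their 13583 reproducible peaks, lay within 1 kb of a TSS. By this rule 15 of 18 regulatory members (83.3%), 7 of 14 core members (50.0%) and 1 of 16 paralogues (6.25%) were bound, against 44.1% of all protein-coding genes. The core share was close to this background, and the regulatory share was well above it. Within the core, 4 of 7 alpha genes and 3 of 7 beta genes were bound. Within the cap, the counts were 5 of 6 Rpt genes and 10 of 12 Rpn genes. The 23 bound members had 23 different best summits, so no peak was counted for 2 members.

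The replicates gave the same order of the classes. When each replicate was read at its own 13583 strongest peaks, regulatory members were bound at 12, 16 and 16 of 18 in replicates 1, 2 and 3. Core members were bound at 6, 9 and 10 of 14, and 1 of 16 paralogues was bound in each. Of all protein-coding genes, 42.1%, 47.5% and 48.3% were bound. The regulatory share, 81.5% ± 12.8 (SD, n = 3), exceeded the background of 46.0% ± 3.35 by more than the spread, and did so in 3 of 3 replicates. The core share, 59.5% ± 14.9, lay within 1 SD of the background. In replicate 1 the core share (42.9%) nearly equalled the background, and in replicates 2 and 3 (64.3% and 71.4%) it was above it. No test was made of these differences, since the series has no contrast. Replicate 1 gave the lowest count for both particles and for all genes.

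**Figure D1:**
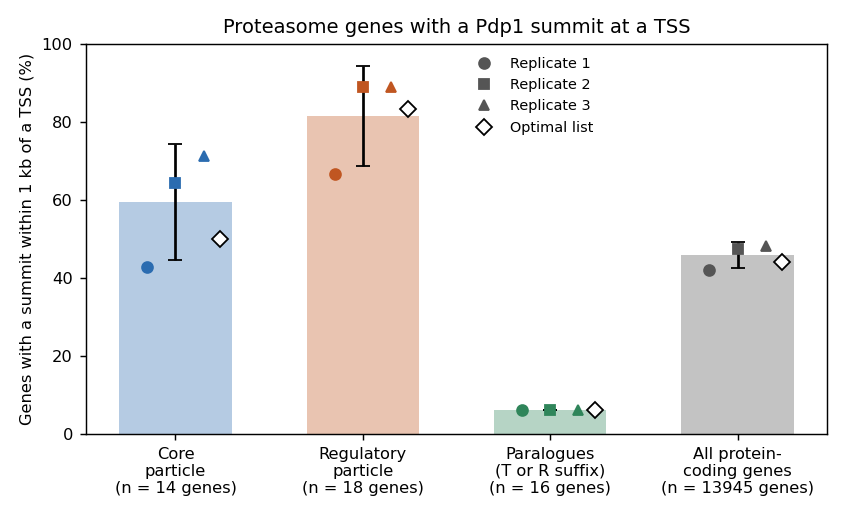
Share of genes (%, y axis) with a Pdp1 summit within 1 kb of a TSS, for core members, regulatory members, paralogues and all protein-coding genes. Bars and error bars are the mean and SD of the 3 replicates, filled symbols are single replicates read at their 13583 strongest peaks, and diamonds are the optimal list, at 50.0%, 83.3%, 6.25% and 44.1%.

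Rpn9, a scaffold subunit of the lid of the regulatory particle, had the strongest peak of all members. The interval at 3R 23732811 to 23733479 had a signal of 3339 and ranked 74 of the optimal list. Signal here is the value the authors' caller gave a peak, and since its scale differs between lists it is compared within a list only. Rpn9 had signals of 1905, 832 and 612 in replicates 1, 2 and 3, and ranked 82, 108 and 60. These ranks were close together, and the next best rank of any member in any list was 733. The summit was 83 bp upstream of the nearer of 2 annotated Rpn9 TSSs, inside an intron of the longer transcript. Further optimal summits of Rpn9 ranked 419 (signal 1678) and 1219 (signal 980.0).

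The next regulatory members were Rpn8, Rpn5 and Rpn3. Rpn8, the partner of the deubiquitinase Rpn11, had a signal of 988 and ranked 1196 in the optimal list, and it ranked 1248, 1279 and 1915 in replicates 1, 2 and 3 with signals of 606, 266 and 128. Rpn5, another lid scaffold, had an optimal signal of 870.5 at rank 1523, and its ranks were 2697, 733 and 1877 with signals of 403, 357 and 129. Rpn3, also of the lid, had 832 at rank 1648, and its ranks were 2551, 1054 and 2331 with signals of 417, 296 and 115. None of these 3 ranked below 2697 in any replicate. The Rpn8 peak (2R 24402074 to 24402932) had its summit inside the Rpn8 gene (24400028 to 24404527), 507 bp upstream of the nearer of 2 annotated Rpn8 TSSs, where it also lay in an intron of the neighbour Slik. That of Rpn5 (3R 5788973 to 5789537) was in an intron of Hat1, 270 bp upstream of the Rpn5 TSS. That of Rpn3 (2L 19051692 to 19051976) was in its own 5' UTR.

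The remaining 11 bound regulatory members were weaker. Rpn10 and Rpn13, the ubiquitin receptors, ranked 1936 and 2531. The lid subunits Rpn6 and Rpn12 ranked 3341 and 10134, the base scaffold Rpn2 ranked 4112, and the deubiquitinase Rpn11 ranked 5988. The ATPase genes lay mostly in the lower part of the range. Rpt5 ranked 4343, Rpt4 6653, Rpt6 9423, Rpt1 10962 and Rpt2 11908. The median rank was 9423 for the 5 bound Rpt genes and 2234 for the 10 bound Rpn genes, against 4350 for all bound genes. These ranks take the strongest summit of a gene, and all 5 Rpt genes but only 4 of the 10 Rpn genes had a single summit. With the summit nearest to the TSS instead, the median rank over bound canonical members went from 4532.5 to 6064.5. Rpn12, Rpt1 and Rpt2 were outside the strongest 13583 of replicate 1, at ranks 16951, 13608 and 17200, but inside those of replicates 2 and 3.

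**Figure D2:**
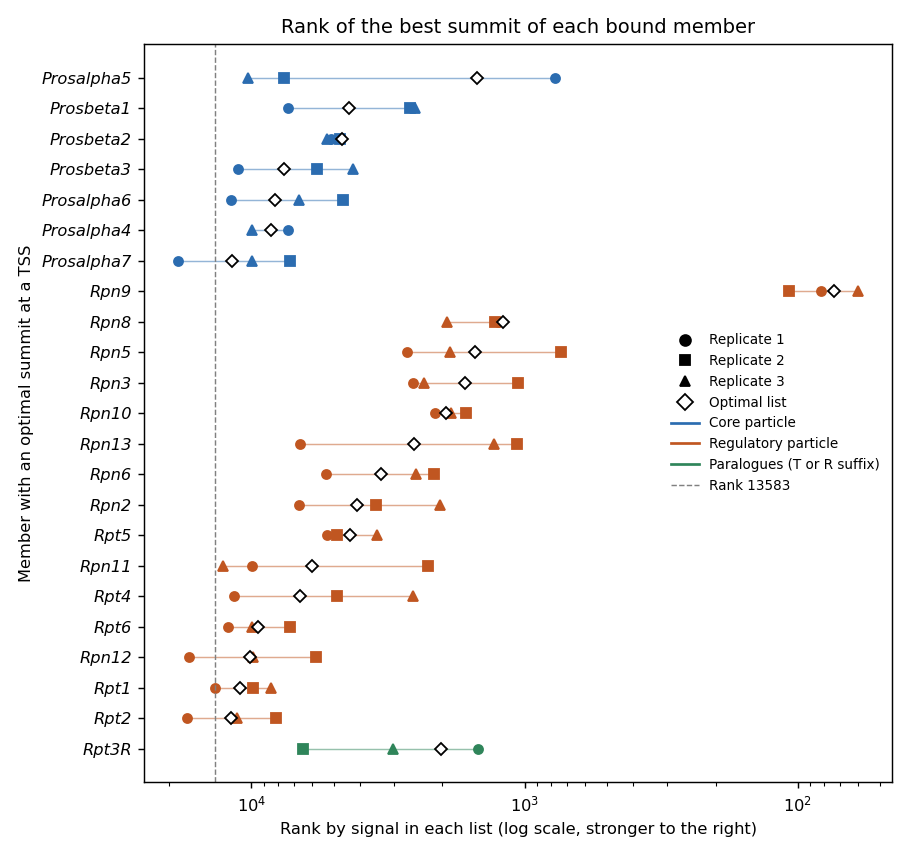
Rank by signal (x axis, log scale, stronger to the right) of the best summit of each of the 23 bound members (y axis). Circles, squares and triangles are replicates 1, 2 and 3, matched within 200 bp of the optimal summit, diamonds are the optimal list, and the dashed line is rank 13583. Rpn9 stands apart at ranks 60 to 108 in the replicates, and the Rpt genes lie from 2550 down to 17200.

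Core particle peaks were weaker than those of the Rpn genes but not than those of the Rpt genes. The median signal was 302 over the 7 bound core members, against 709.6 over the 10 bound Rpn genes and 244 over the 5 bound Rpt genes. The strongest core peak ranked high in replicate 1 alone. Prosalpha5, a subunit of the outer ring, had an optimal signal of 876 at rank 1496. Its replicate signals were 769, 76.3 and 39.2, at ranks 776, 7597 and 10292. Prosbeta1, the subunit with caspase-like activity, went the other way, with an optimal signal of 459 at rank 4405 and replicate signals of 192, 174 and 110.1 at ranks 7330, 2628 and 2507. Prosbeta2, the trypsin-like subunit, was the steadiest, with an optimal signal of 441 at rank 4660 and replicate signals of 260.2, 114 and 68.2 at ranks 5125, 4730 and 5262. Prosbeta3, a structural beta subunit, had 302 at rank 7597, with replicate signals of 124, 97.8 and 78.8 at ranks 11193, 5755 and 4239.

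Their positions also differed. The Prosalpha5 peak (2R 17412048 to 17412544) had an intergenic summit 389 bp upstream of the TSS, and the Prosbeta2 summit (3L 14999359 to 14999702), 394 bp upstream, was in a coding exon of mRpL39. The intergenic summits of Prosbeta1 (2R 16014745 to 16014999) and Prosbeta3 (3R 9006195 to 9006630) were nearer, 104 and 187 bp upstream.

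The other 3 bound core members, all of the alpha ring, were Prosalpha6 (rank 8177), Prosalpha4 (8467) and Prosalpha7 (11740). Prosalpha4 had no line within 200 bp of its summit in the whole list of replicate 2, where the best line near its TSS ranked 8506, and Prosalpha7 ranked 18484 in replicate 1. Over the 15 bound regulatory members together the median optimal signal was 484, against 462 over all 6148 bound genes. Across the 21 bound canonical members with a line in every replicate, Spearman's rho of the ranks was 0.809 for replicates 2 and 3, 0.673 for replicates 1 and 2, and 0.625 for the remaining pair. These values describe members of the same 3 libraries, and carry no test. Best summits of 17 of 22 bound canonical members (77.3%) were among the strongest 13583 peaks of all 3 replicates, against 75.4% of those of all bound genes.

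Of the canonical genes 10 were not bound, 7 of the core and 3 of the regulatory particle. They include Prosbeta5, which carries the chymotrypsin-like activity, with its nearest optimal summit 8964 bp from the TSS. The others of the core were Prosalpha1 (3210 bp), Prosalpha2 (2811 bp), Prosalpha3 (1609 bp), Prosbeta4 (4277 bp), Prosbeta6 (1111 bp) and Prosbeta7 (3350 bp). In the cap they were Rpn1, a large scaffold that binds ubiquitin and shuttle proteins (4775 bp), the lid subunit Rpn7 (3231 bp) and the ATPase Rpt3 (1261 bp). Prosbeta6 and Rpt3 were the nearest outside the limit of 1 kb, and Prosalpha4, at 636 bp, was the farthest inside it. The summit near Prosbeta6 lay 40 bp from the TSS of a neighbour, CG4098.

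Most of these unbound genes did have lines in the relaxed lists of single replicates, which run down to background. Prosalpha3 had no line within 1 kb of its TSS in replicate 1, though it ranked 3303 and 5324 in replicates 2 and 3. Rpn1 ranked 3679 in replicate 3 and had no line in replicates 1 and 2. In those replicates these were not weak lines, since the bound canonical members had median ranks of 4612 in replicate 2 and 3846 in replicate 3. Those medians are of lines within 200 bp of the optimal summit, not of the best line within 1 kb. In the relaxed pooled list neither Prosalpha3 nor Rpn1 had a line within 1 kb of its TSS. Prosalpha2 had ranks of 23431, 12835 and 8352 in the 3 replicates. Rpn7 reached rank 8194 in replicate 2 and Prosbeta5 reached 8687 in replicate 3, and in the other replicates both had either no line or one ranked 19733 or weaker. None of the 10 had a line among the 13583 strongest of replicate 1. Of the canonical genes Prosalpha1 alone had no line in any replicate.

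The paralogues were almost all without a peak. Rpt3R, a duplicate of the ATPase gene Rpt3, was the exception. It had an optimal signal of 747 at rank 2017, and replicate signals of 558, 88.3 and 97.8 at ranks 1479, 6489 and 3041. Its summit (peak at 3R 9756544 to 9756973) lay 231 bp upstream of the nearer Rpt3R TSS, in the 5' UTR of Alg12, a glycosyltransferase gene on the other strand with a TSS 250 bp from the summit. The parent gene Rpt3 was not bound.

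For the other 15 paralogues the nearest optimal summit was a median of 13483 bp from the TSS, with a range of 1434 to 129493 bp. For the 7797 unbound protein-coding genes the median was 6797 bp. Of these 15, 13 (86.7%) had no line within 1 kb of a TSS in any replicate's whole list, against 56.3% of all unbound genes. The 2 with a line were Prosalpha6T, in replicate 2, and Rpt6R, in all 3 replicates, and the best of these lines ranked 20586. Each paralogue was set beside the canonical gene of the same name without the suffix. In 9 of 16 pairs the parent was bound and the paralogue was not, in 6 neither was bound, in 1 the paralogue alone was bound, and in none were both. The 16 pairs share 12 parents, so they are not independent. With 1 paralogue bound, at most 1 pair could have held both, so the counts add little to those of the classes. Prosalpha4, Prosalpha6, Prosbeta2, Rpn12, Rpn13, Rpt4 and Rpt6 were the bound parents. Embryos hold no adult testis, so these data do not show whether the paralogues are bound where they are known to be expressed.

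Summits at bound members sat close to the nearest TSS of the gene and mostly upstream of it. The median distance of the best summit was 86.5 bp over the 22 bound canonical members, with 187 bp in the core and 78.0 bp in the regulatory particle, against 195 bp over all bound genes. Within 200 bp of the TSS lay 17 of the 22 (77.3%), against 50.8% over all bound genes. Upstream of the TSS lay 20 of 22 (90.9%), against 68.0%. Rpn3, at 29 bp, and Rpt2, at 52 bp, had their summits downstream, both in the 5' UTR. All 7 core members had a single summit, and 9 of 15 regulatory members did, against 63.4% of all bound genes.

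Most proteasome promoters are shared with a neighbour, which limits what a summit says of the member itself. Of the 32 canonical genes, 22 (68.8%) have a divergent partner, a gene on the opposite strand that starts up to 1 kb upstream, against 36.2% of all protein-coding genes. Only 4 of 16 paralogues have one. Genes with such a partner were bound more often in the genome as a whole, at 64.7%, against 32.4% of those without. Among canonical members 16 of 22 with a partner (72.7%) and 6 of 10 without (60.0%) were bound. In the core, 6 of 10 with a partner were bound, which is close to the 64.7% of all such genes, and 1 of 4 without. In the regulatory particle, the counts were 10 of 12 and 5 of 6. The share bound also moved with the number of TSSs: 36.1% of all genes with 1 annotated TSS were bound and 66.2% of those with more. For canonical members the counts were 14 of 22 and 8 of 10.

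At 9 of 22 bound canonical members (40.9%) the start site of another gene was nearer to the best summit than that of the member, against 26.7% of all bound genes. In the core this held for Prosalpha4 (nearer to kat80), Prosbeta1 (Rrp42), Prosbeta2 (mRpL39, which encodes a mitochondrial ribosomal protein) and Prosbeta3 (Iru). In the cap it held for Rpn2 (Slbp, the histone mRNA stem-loop binding protein), Rpn5 (Hat1, a histone acetyltransferase), Rpn8 (Slik, a kinase), Rpt4 (mldr) and Rpt5 (RanBP3). The gaps could be small, as at Rpt5, where the summit was 27 bp from the member and 15 bp from RanBP3. Which gene of a pair such a peak acts on was not tested. No other protein-coding gene started within 1 kb of the best summit at Prosalpha5, Rpn10, Rpn12, Rpt1 and Rpt6. The summit of Rpt1 nevertheless lay in an intron of CG17985, and that of Rpt6 in an intron of CG1801.

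**Figure D3:**
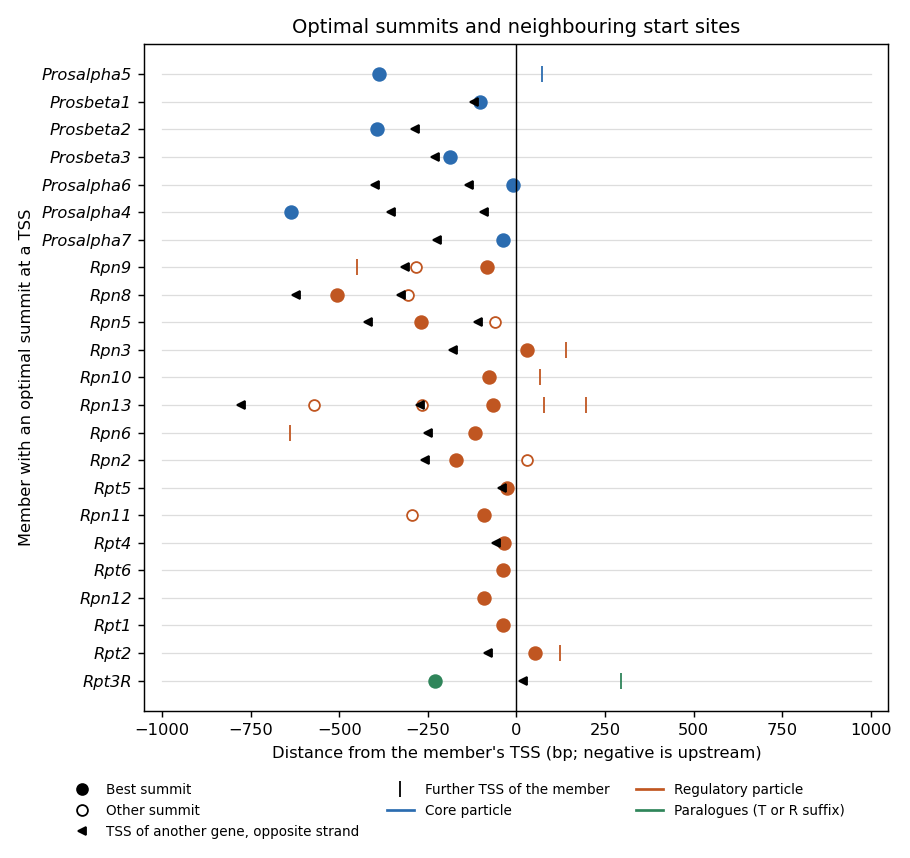
Distance in bp (x axis, negative is upstream) of optimal summits and of other start sites from the member's TSS nearest to its best summit, for each of the 23 bound members (y axis). Filled circles are best summits, open circles further summits, triangles start sites of genes on the opposite strand and ticks further start sites of the member. Best summits lie within 200 bp of the TSS at 17 of 22 canonical members, and 2 further summits, of Rpn8 and Rpn9, lie outside the range shown.

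Sequence words were counted on both strands within 50 bp of the best summit. Each share stands beside that over all 6919 optimal summits near a TSS. The 6919 hold every such summit, not only the best of each gene, so the shares compare summit sets that were not chosen alike. The canonical PAR bZIP site, TTACGTAA or TTATGTAA, was at 4 of 22 bound canonical members (18.2%), namely Prosbeta2, Rpn9, Rpn10 and Rpn11, against 8.34% of the 6919. In all 4 the word was TTATGTAA. A wider family of 10 words includes these together with TTATATAA, TTATACAA, TTATGCAA, TTACACAA, TTACGCAA, TTGCACAA, TTGCGCAA and TTGTACAA. A family word was at 8 of 22 (36.4%), against 26.1%. Besides the 4 members above these were Prosalpha4 and Prosalpha5 in the core, and Rpn5 and Rpn8 in the cap. The 4 regulatory members of highest signal thus included 3 with a family word, and Rpn3 had none.

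The DRE, TATCGATA, which is known from promoters of housekeeping genes, was at 3 of 22 summits (13.6%), those of Prosalpha6, Prosbeta1 and Rpt5, against 3.54%. Its centre lay 2, 14 and 15 bp from the summit. No member had both a DRE and a PAR bZIP word there, but with a DRE at 3 summits at most 3 could have. The share of the 6919 with both words was not computed, so nothing is read from this. The C/EBP word TTGCGCAA, itself one of the 10 family words, and the E-box CACGTG were at none of the 22 summits, and they were at 0.737% and 1.52% of the 6919. The E-box CAGCTG (7.54% of the 6919) was at Prosalpha4 alone. The Ohler 1 core GGTCACACT (2.17%) and the antioxidant response core TGACNNNGC (2.64%) were at Prosbeta3 alone, where they overlap.

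Promoters were also read, from 250 bases before to 50 after a TSS. For a bound gene this was the TSS nearest to its best summit, and for an unbound gene the 5' end of the gene. The window can hold the summit, so these counts are not independent of those at summits. Windows of bound and unbound genes were not chosen alike. The DRE was in 11 of 32 canonical promoters (34.4%) and in none of 16 paralogue promoters, against 9.04% of all 13945 promoters and 13.1% of those of bound genes. It was in 8 of 22 promoters of bound canonical genes and in 3 of 10 promoters of unbound ones. The Ohler 1 core was in 6 of 32 canonical promoters (18.8%), against 5.79%, and in 3 of 22 promoters of bound canonical genes and 3 of 10 of unbound ones. The antioxidant core was in 5 of 32 (15.6%), against 8.63%, and was in 2 of the 22 (9.09%, against 8.86% of all bound genes) and 3 of the 10. In flies the antioxidant core is bound by CncC, a regulator of proteasome genes. The PAR bZIP site was in 4 of 32 (12.5%), against 2.79% of all promoters and 3.95% of those of bound genes, and all 4 belonged to bound genes. They were Prosbeta2, Rpn9, Rpn10 and Rpn11, the same members as in the summit count. A word of the wider family was in 7 of 32 canonical promoters (21.9%) and in 5 of 16 paralogue promoters (31.2%), where 1 paralogue of the 16 was bound, against 14.9% of all. Matches of this kind are descriptions of letters in a window, and no factor was measured here besides Pdp1.

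By the 1 kb rule, genes that work with the proteasome were bound at a share like that of the canonical subunits. Of 31 symbols in 4 lists 26 were matched in the gene models, and 19 of these (73.1%) were bound, against 44.1% of all protein-coding genes. The lists were chosen with earlier results of these data known, so these shares describe the lists and are no test of the pathway. A TSS window narrower than 1 kb but wider than 250 bp left 15 of the 26 bound. It left 65.6% of canonical members and 38% of all genes. Best summits of Keap1, maf-S, Usp14, Pngl, REG and RpL40 lay 667 to 888 bp from the TSS, and those of the others at most 329 bp. Another gene started within 1 kb of the best summit at most of the 19, such as kuk at Keap1 and PTPMT1 at Hrd3. Which gene such a peak acts on was not tested. All 6 genes of the list on transcriptional control of proteasome genes were bound. This list also holds Hrd3 and sip3, which encode parts of a ubiquitin ligase complex. The strongest was Hrd3, a subunit of the ubiquitin ligase complex of the endoplasmic reticulum, with a signal of 3245 at rank 79 and ranks of 166, 28 and 150 in replicates 1, 2 and 3. Keap1, the repressor of CncC, ranked 1810 with 5 summits near its TSSs, and sip3, the ligase partner of Hrd3, ranked 2800. The gene for CncC itself, cnc, had 8 summits near its 10 TSSs and ranked 3028, and its partner maf-S ranked 6598 and the glycanase gene Pngl 6548. With 10 TSSs, cnc has more chances of a call than a gene with 1.

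Of 9 matched assembly and accessory genes 6 were bound (66.7%), against 44.1% of all protein-coding genes. The other 2 short lists below had 60% and 66.7% bound, and in lists of this size 1 gene moves the share by many points. The proteasome activator gene REG ranked 1053, ntc, an F-box gene, 3276, and the assembly chaperone gene Pomp 4971. The deubiquitinase genes Uch-L5 (7232) and Usp14 (9942) and CG9588 (8041) were also bound, while PI31, Sem1 and PSMG1 were not. Of 5 ubiquitin supply genes 3 were bound, Ubi-p63E at rank 1972, RpS27A at 9296 and RpL40 at 12212, while Ubi-p5E and the activating enzyme gene Uba1 were not. Of 6 matched shuttle and unfoldase genes 4 were bound, TER94, the p97 ATPase, at 6316, rngo at 8628, Ubqn at 8786 and Rad23 at 11419, while Npl4 and p47 were not. The 5 symbols without a match were Ecm29, PSMG2, PSMG3, PSMG4 and Ufd1-like, and these are not analysed here.

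The order of the classes was compared under 14 definitions of a bound gene. Regulatory members were well above all genes under 13 of them, with 83.3% against 44.1% by the rule above. With the strongest 10% of the optimal list, 2 of 18 (11.1%) were bound against 9.26%, a share near the background. Core members were above all genes under 9 of the 14 definitions. They were below with a window of 250 bp (28.6% against 31.0%), with the stronger 50% of the list (21.4% against 29.7%), with its strongest 10% (0 of 14 against 9.26%), with peaks found in both replicates 1 and 2 (35.7% against 35.9%) and when a summit counted only for the gene of the nearest TSS (21.4% against 35.2%). The last rule left 12 of 18 regulatory members bound (66.7%), and of the core it left Prosalpha5, Prosalpha6 and Prosalpha7. Rpn9 and Rpn8 were the 2 members bound by the strongest 10%. Paralogues stayed below all genes under all 14 definitions.

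**Figure D4:**
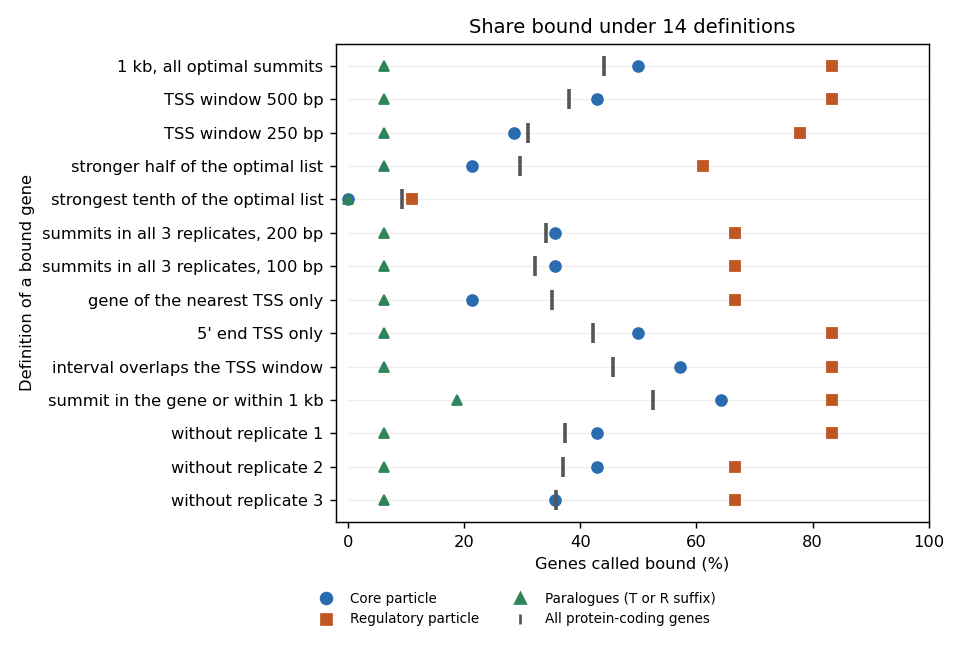
Share of genes called bound (%, x axis) under 14 definitions (y axis), for core members (circles), regulatory members (squares), paralogues (triangles) and all protein-coding genes (vertical bars). Squares lie well to the right of the bar except with the strongest 10% of the list, where they nearly meet (11.1% and 9.26%), circles lie on both sides of it, and triangles lie to its left.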

How the data were processed

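The authors deposited narrowPeak lists on the dm6 assembly, namely relaxed lists of 30000 lines for each replicate and for the pooled replicates, and an optimal list of 13583 lines, kept by a test of irreproducible discovery rate, per the deposited file records. Calls were made against a control, per the same records. Neither the aligner nor the caller is named in the labels or records. The deposited signal of each peak is the caller's value, with median list values of 86.1, 37.8 and 26.8 in replicates 1, 2 and 3. The lists hold no read counts, so depth is unknown. All 13583 optimal lines lay on the 6 arms and none ended past an arm end of the genome used. Lists on dm3 were not used.

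Summits (interval start plus the deposited offset) were set against TSSs of Ensembl release 115 gene models. A line matched a replicate within 200 bp. Ranks are by signal. Words were counted with Python 3.11.15 and numpy 2.4.6. Calls were tested on simulated peaks at known distances. Replicates were biological, per the labels, from separate samples of 1 line. Members, lists and the naming rule were chosen with earlier results of these data known. The rule named in full the 4 core and 4 regulatory members of highest signal and every bound paralogue, and up to 3 bound genes of each pathway list. Other members are given by rank or distance, and further bound pathway genes by rank. Protein identities between paralogues and parents were planned and not computed, since no protein table was used here. With 1 group and no contrast, no test was made.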

Additional observations from a re-analysis of the deposited data

How the results depend on the processing

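Of 59 recomputed values, 46 stayed within the spread between replicates or, for counts, within 1.5 times. The 46 include the mean shares with 1 replicate left out, whose outcome was fixed in advance. Dropping 1 of 3 values cannot move their mean by as much as their SD, so these say nothing of stability. The core count of 7 became 4 with a window of 250 bp, 3 with the stronger 50% of the list, 3 with the nearest TSS only and 0 with the strongest 10%, which left 2 regulatory members in place of 15 and 0 paralogues in place of 1. Counting summits inside the gene body as well gave 3 paralogues. Leaving out replicates in turn (optimal summits found in both others) gave 5 to 6 core members, 12 to 15 regulatory members and 1 paralogue. The optimal list was itself derived from all 3 replicates, so these counts could only stay or fall, and the replicate left out still shaped the list. The mean share over replicates was 46.9% for canonical, 31.0% for core and 59.3% for regulatory members at 50% of the lines, against 31.3% of all genes, so the core share was at the background. With whole lists, which run down to background, it was 91.7%, 85.7% and 96.3% in the same order, against 58.7%. Without 1 replicate these means ranged from 67.2% to 79.7%, from 53.6% to 67.9% and from 77.8% to 88.9%. The lower counts with fewer lines or narrower windows follow from how those alternatives are built. No paired analysis was possible because the series has 1 group. Depth is unknown, so a member without a line is not shown to be unbound.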
